A study of Mus musculus with 12 samples.

Results

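Gpnmb was examined beside Mitf and 7 genes of pigment cells in retinal RNA of mice with experimental autoimmune encephalomyelitis (EAE), an immune model of optic neuritis. The 9 genes were Gpnmb, Mitf, Tyr, Tyrp1, Dct, Pmel, Mlana, Slc45a2 and Oca2, of 54532 gene identifiers in the count tables and 34538 with a count. Gpnmb was chosen by its counts in GB20 against GV16, where its level separated the groups, and the others were selected on their known role in pigment cells. The question was whether Gpnmb followed the content of pigment cell transcripts across the groups. All 12 libraries came from retinas of wild-type C57BL/6 mice at 13 weeks of age, 3 libraries in each of 4 groups. SHAM mice were the controls without MOG35-55, and MOG mice had been immunized with that myelin peptide. GB20 and GV16 mice had received MOG35-55 as well and were then needled, under anesthesia, at acupoint GB20 or at the control acupoint GV16. Per the methods the mice were female, and SHAM and MOG stand beside the needled groups as groups without needling. A library may hold the retinas of several mice, which the sources used here do not settle, so the spread between libraries may be smaller than that between animals.

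Pigment cells of the eye are the retinal pigment epithelium, which lies against the rods and cones, and the melanocytes of the choroid and iris. They make melanin in melanosomes, organelles related to lysosomes, and the transcription factor MITF switches on many of the genes that build them. GPNMB is a membrane glycoprotein related to the melanosome protein PMEL. It is made in pigment cells and also in macrophages, activated microglia and osteoclasts, where it is tied to lysosomes and phagocytosis. In DBA/2J mice, mutations of Gpnmb and Tyrp1 together give iris pigment dispersion and glaucoma, which is why the gene is well known in eye research.

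The genes lie apart from each other in GRCm38, except that several share a chromosome. Gpnmb is at chr6:49036546-49070929 on the plus strand, and Mitf is at chr6:97807052-98021349 on the same chromosome and strand. Tyr is at chr7:87424771-87493512 on the minus strand and Oca2 at chr7:56239760-56536518 on the plus strand. Tyrp1 is at chr4:80834123-80851719 (plus), Dct at chr14:118012790-118052244 (minus), Pmel at chr10:128704195-128720238 (plus), Mlana at chr19:29697824-29708634 (plus) and Slc45a2 at chr15:11000721-11029233 (plus). All are annotated as protein coding. Of Pmel, 6.07% of the exon bases overlap Cdk2 and Dgka on the other strand, and the strand setting of the counting is not given in the sources used here, so reads there could belong to either gene. The exons of the other members overlap those of no other gene.

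RefSeq promoter sequences of GRCm38.p6 were held for 6 of the 9 genes, and the 250 bases before each start were searched on both strands for CATGTG, read as CACATG on the other strand, and for the palindrome CACGTG. Both are E-boxes that MITF is known to bind, and the sequences are shown because they are where Gpnmb and the enzymes of melanin synthesis differ in these letters. CATGTG was found before Tyr, Tyrp1, Dct and Oca2. Capitals mark the E-box, and each stretch is printed 5′ to 3′ on the strand of its gene, with distances from the RefSeq start.

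Tyr, chr7:87493513-87493588, minus strand, E-box beginning 21 bases before the start: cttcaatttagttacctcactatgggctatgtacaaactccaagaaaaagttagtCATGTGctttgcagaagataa

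Tyrp1, chr4:80834155-80834184, plus strand, 46 bases before the start: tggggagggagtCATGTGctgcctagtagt

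Dct, chr14:118052351-118052426, minus strand, 150 bases before the start, with another CACATG farther off at 232 bases: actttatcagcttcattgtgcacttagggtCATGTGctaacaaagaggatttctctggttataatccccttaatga

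Oca2, chr7:56239543-56239618, plus strand, 186 bases before the start: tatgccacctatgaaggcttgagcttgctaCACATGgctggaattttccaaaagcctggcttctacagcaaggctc

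Gpnmb, chr6:49036268-49036517, plus strand, no E-box of either kind, so no capitals: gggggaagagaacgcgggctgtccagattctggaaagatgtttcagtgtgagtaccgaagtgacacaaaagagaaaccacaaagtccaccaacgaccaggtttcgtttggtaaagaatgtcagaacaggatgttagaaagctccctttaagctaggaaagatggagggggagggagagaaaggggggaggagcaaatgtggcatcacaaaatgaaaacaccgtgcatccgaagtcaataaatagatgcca

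The 3 windows held for Mitf, which starts at several promoters, had no match either. Over 32851 promoters of this length, 12.3% held CATGTG, 6.02% held CACGTG and 17.6% held either. A match is only a match of letters, and its absence in 250 bases says nothing of binding elsewhere.

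Libraries held 15860278 to 19194280 counts. Gnat1, the transducin of rods, was at a mean of 10463 CPM (counts scaled to a common library size) in SHAM and 9921 in MOG, and all 7 ganglion cell markers were lower in MOG than in SHAM, Nefm among them by 1.03 on the log2 scale. Libraries SHAM 2 and GB20 2 stood apart by the lens gene Cryaa, with 123 and 69 counts against at most 9 in every other library. Library GV16 2 stood apart by pigment epithelium and pigment cell transcripts, as given below. Changes were tested on counts with edgeR over the 18299 genes that passed its filter on low counts, and a gene was called at a Benjamini-Hochberg adjusted p under 0.05. Of the 9 members 7 passed the filter, and Mlana and Slc45a2 did not.

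Gpnmb was higher in all MOG libraries than in all SHAM libraries. SHAM libraries held 56, 45 and 58 counts and MOG libraries 165, 197 and 183, which is 2.65 to 3.39 CPM against 9.23 to 12.1 CPM. The mean rose from 3.08 ± 0.390 to 10.8 ± 1.45 CPM (SD, n = 3 each), with no overlap. The log2 fold change was 1.80 with a standard error (SE) of 0.171, a 3.48-fold rise (edgeR, Benjamini-Hochberg adjusted p = 1.57e-06). By p it was number 4 of 18299 genes and by size number 11 among the 104 that rose. Of all genes tested, 1.34% were called in this comparison. With the lens-positive libraries SHAM 2 and GB20 2 left out the log2 fold change was 1.71, and on log2(FPKM + 1) of the deposited FPKM values, a scale that compresses low levels, it was 0.84.

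In the needled groups Gpnmb took different levels. GB20 libraries had 64, 46 and 59 counts, which is 3.30, 2.80 and 3.59 CPM, within reach of SHAM. GV16 libraries had 112, 142 and 109 counts, which is 6.95, 9.13 and 6.75 CPM, above every SHAM and GB20 library and below every MOG library. The means were 3.23 ± 0.402 CPM in GB20 and 7.61 ± 1.32 CPM in GV16 (SD, n = 3 each). The GB20 range overlapped that of SHAM and lay apart from that of MOG.

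These levels include the libraries on which the gene was chosen and are therefore given as a description. The log2 fold change was -1.73 (SE 0.170) in GB20 vs. MOG, -0.50 (SE 0.155) in GV16 vs. MOG and -1.23 (SE 0.175) in GB20 vs. GV16. Against SHAM it was 0.067 (SE 0.192) for GB20 and 1.30 (SE 0.176) for GV16. GB20 vs. MOG and GV16 vs. MOG share the MOG libraries, and the comparisons with SHAM share the SHAM libraries. In GB20 vs. GV16 the threshold was passed by 1 of 18299 genes, 0.00546% of those tested, and that gene is Gpnmb, so the call chose the gene and is no evidence about it. The call held under 17 of 22 alternatives and was lost with limma on either FPKM scale and without GB20 1, GB20 2 or GV16 2. Without SHAM 2 and GB20 2 the value for GB20 vs. GV16 was -1.14.

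Counting error alone is a sizeable part of the spread within groups. A count of 45 to 58 carries a Poisson error of 13.1% to 14.9%, and the coefficient of variation of Gpnmb over the SHAM libraries was 12.6%. In MOG the counting error was 7.12% to 7.78% and the coefficient of variation 13.4%.

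**Figure D1:**
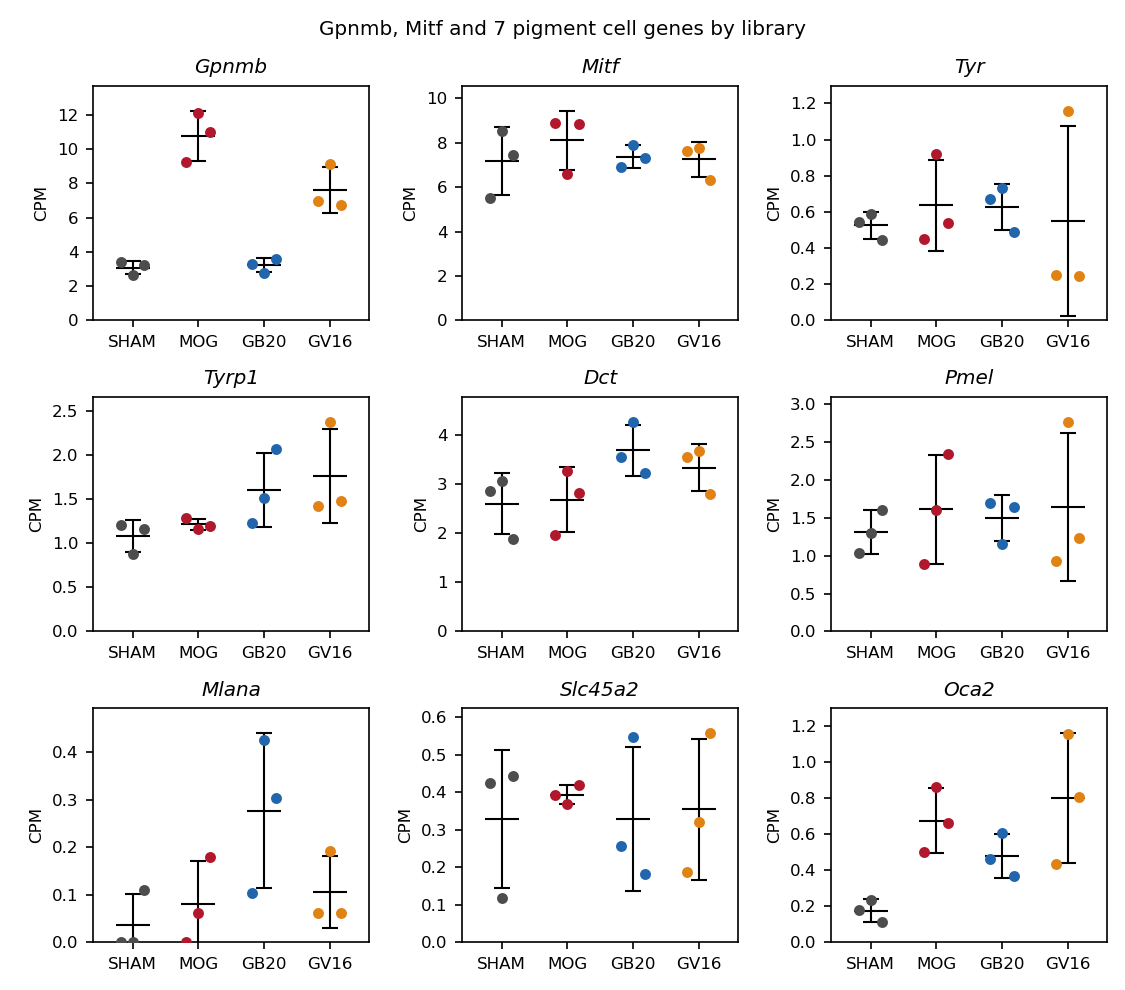
CPM (linear axis from 0) of the 9 genes, 1 point per library and 3 libraries per group, with the mean as a bar and the SD as whiskers; scales differ between panels. Gpnmb had 9.23 to 12.1 CPM in MOG and 2.80 to 3.59 CPM in GB20, whereas Mitf overlapped between all groups.

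Mitf, which encodes the transcription factor named above, overlapped between all groups. Its counts were 91, 145 and 134 (SHAM), 159, 107 and 147 (MOG), 134, 130 and 120 (GB20) and 123, 121 and 102 (GV16). No group stood apart from another. The means were 7.16 ± 1.53, 8.10 ± 1.32, 7.37 ± 0.504 and 7.24 ± 0.807 CPM (SD, n = 3 each). MOG vs. SHAM gave a log2 fold change of 0.18 with an SE of 0.163 (edgeR, Benjamini-Hochberg adjusted p = 0.671), and GB20 vs. MOG gave -0.14 (SE 0.162, adjusted p = 0.858). At this depth a change of Mitf as large as that of Gpnmb would lie many SE from these values, but a small one could not be seen.

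The other factors of the MITF family were not called either. Tfe3, which like MITF switches on lysosomal genes, had 41.4 CPM in SHAM and 46.8 CPM in MOG. This difference of 0.18 on the log2 scale (SE 0.0818) did not pass the threshold (edgeR, Benjamini-Hochberg adjusted p = 0.352). Tfeb, the best known regulator of lysosome genes, gave -0.10 (SE 0.144) in MOG vs. SHAM and 0.25 (SE 0.142) in GB20 vs. MOG. Tfec was at 0 in every library. Of 18 tested lysosomal genes that this family can drive, 0 were called by edgeR in any of the 6 comparisons, where at most 1.34% of all genes were. Of the 18, 3 had an unadjusted p under 0.05 in MOG vs. SHAM and 1 in GB20 vs. MOG. Over all 18299 genes 2380 had such a p in MOG vs. SHAM, 1464 in GB20 vs. MOG and 969 in GV16 vs. MOG, and the counts of other lists below are to be read beside these. Their median log2 fold change was 0.0081 in MOG vs. SHAM, beside -0.0023 over all genes tested.

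Tyrp1 and Dct encode the enzymes that act after tyrosinase in melanin synthesis. Tyrp1 had counts of 20, 15 and 21 (SHAM), 23, 19 and 20 (MOG), 24, 25 and 34 (GB20) and 23, 37 and 24 (GV16). The SHAM libraries were the lowest on average, and the ranges of SHAM and MOG overlapped. Its log2 fold change was 0.17 (SE 0.317) in MOG vs. SHAM and 0.39 (SE 0.301) in GB20 vs. MOG, and neither passed the threshold (edgeR, Benjamini-Hochberg adjusted p = 0.864 and 0.766).

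Dct had counts of 47, 52 and 34 (SHAM), 35, 53 and 47 (MOG), 69, 70 and 53 (GB20) and 57, 57 and 45 (GV16). All GB20 libraries were above all SHAM libraries, at 3.68 ± 0.526 against 2.60 ± 0.624 CPM (SD, n = 3 each). The log2 fold change of GB20 vs. SHAM, 0.51 (SE 0.229), did not pass the threshold (edgeR, Benjamini-Hochberg adjusted p = 0.510). Between MOG and SHAM the value was 0.044 (SE 0.238), and from MOG to GB20 it was 0.46 (SE 0.228, adjusted p = 0.628), the opposite sign to the -1.73 of Gpnmb.

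Tyr, the rate-limiting enzyme of melanin synthesis, was near the limit of detection. Counts were 8 to 10 (SHAM), 8 to 15 (MOG), 8 to 13 (GB20) and 4 to 18 (GV16), where library GV16 2 held the 18. MOG vs. SHAM gave 0.27 on the log2 scale, with an SE of 0.513. Only a change several times that error could have passed the threshold. Oca2, at 1.90 with an SE of 0.543 in MOG vs. SHAM, did not pass it.

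Pmel forms the fibrils on which melanin is laid down, and its protein is a relative of GPNMB. Its counts were 17, 22 and 29 (SHAM), 16, 26 and 39 (MOG), 33, 19 and 27 (GB20) and 15, 43 and 20 (GV16). The groups overlapped throughout, and the log2 fold change was 0.28 (SE 0.383) in MOG vs. SHAM and -0.090 (SE 0.375) in GB20 vs. MOG (edgeR, Benjamini-Hochberg adjusted p = 0.792 and 0.962).

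Oca2, a melanosome membrane protein that sets the pH of the organelle, was the pigment gene whose pattern over the libraries was most like that of Gpnmb. It had counts of 3, 4 and 2 (SHAM), 9, 14 and 11 (MOG), 9, 10 and 6 (GB20) and 7, 18 and 13 (GV16). SHAM was apart from each of the other groups, and the MOG, GB20 and GV16 libraries overlapped. Its mean level was 0.176 ± 0.0623 CPM for SHAM and 0.675 ± 0.179 CPM for MOG (SD, n = 3 each). The log2 fold change of 1.90 (SE 0.543) in MOG vs. SHAM did not pass the threshold (edgeR, Benjamini-Hochberg adjusted p = 0.0953), nor did 2.14 (SE 0.533) in GV16 vs. SHAM (adjusted p = 0.0688). GB20 vs. MOG was -0.48 (SE 0.450, adjusted p = 0.815). Unlike Gpnmb, Oca2 in GB20, at 0.479 ± 0.122 CPM, had a range apart from SHAM, as did 12.7% of all genes. Its log2 fold change in GB20 vs. SHAM, 1.42 (SE 0.572), did not pass the threshold (edgeR, Benjamini-Hochberg adjusted p = 0.435).

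Mlana, which encodes the melanosome protein recognized as Melan-A, had counts of 0, 0 and 2 (SHAM), 0, 1 and 3 (MOG), 2, 7 and 5 (GB20) and 1, 3 and 1 (GV16). Slc45a2, a melanosomal transporter, had 2 to 9 counts per library, which summed to 17 (SHAM), 20 (MOG), 17 (GB20) and 17 (GV16). Neither can be compared at this depth.

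Leaving Gpnmb aside, 0 of the 6 tested members were called by edgeR in MOG vs. SHAM, where 1 had an unadjusted p under 0.05, and 0 in GB20 vs. MOG, where 0 did. GV16 vs. MOG had 0 called and 0 under an unadjusted p of 0.05, and each needled group against SHAM had 0 called and 2 under it. DESeq2 on the same counts called none of them either. The shares of all genes called were 1.34% in MOG vs. SHAM, 0.24% in GB20 vs. MOG, 0.164% in GV16 vs. MOG, 0.344% in GB20 vs. SHAM and 0.656% in GV16 vs. SHAM. Read against these shares, 0 of 6 says little of these genes as a group. The values of all 6 lay above 0 in MOG vs. SHAM, with a median log2 fold change of 0.22 beside -0.0023 over all genes. In GB20 vs. MOG 2 of 6 lay above 0 and the median was -0.047.

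Ranges that do not overlap were counted as a second reading of the same values. Of the 6 members other than Gpnmb 1 was apart in MOG vs. SHAM (16.2% of all genes tested), 0 in GB20 vs. MOG (15.7%), 1 in GV16 vs. MOG (12.6%), 3 in GB20 vs. SHAM (12.7%) and 2 in GV16 vs. SHAM (14.5%). In GB20 vs. GV16, 0 were apart, beside 8.34% of all genes. The 3 apart in GB20 vs. SHAM were Tyrp1, Dct and Oca2, each higher in GB20.

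**Figure D2:**
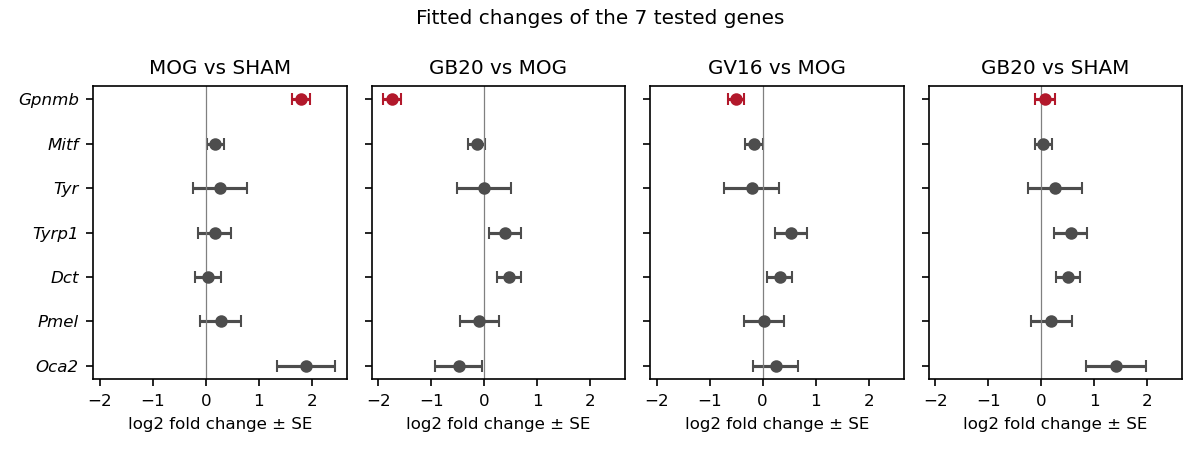
Log2 fold change (x axis, edgeR) with its SE for the 7 tested genes in 4 comparisons, Gpnmb in red. Gpnmb lies at 1.80 in MOG vs. SHAM, -1.73 in GB20 vs. MOG and 0.067 in GB20 vs. SHAM. Oca2 lies at 1.42 (SE 0.572) in GB20 vs. SHAM and was not called there.

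Levels between genes were compared on FPKM, the deposited values per gene length. In SHAM the order was Mitf at 1.14 ± 0.245, Pmel at 0.566 ± 0.125, Gpnmb at 0.469 ± 0.0590, Dct at 0.436 ± 0.105 and Tyrp1 at 0.380 ± 0.0622 FPKM (SD, n = 3 each). Gpnmb differed from Pmel, Dct and Tyrp1 by no more than the spread of these genes together. In MOG the order of the first means changed, with Gpnmb at 1.64 ± 0.214 above Mitf at 1.30 ± 0.215 FPKM, though their ranges overlapped. In GB20 the mean of Gpnmb, at 0.492 ± 0.0618 FPKM, was below Pmel at 0.649 ± 0.129, Dct at 0.620 ± 0.0887 and Tyrp1 at 0.565 ± 0.152 FPKM (SD, n = 3 each). The ranges of Pmel, Dct and Tyrp1 each overlapped that of Gpnmb there. In GV16 Gpnmb equalled Mitf, at 1.16 ± 0.197 against 1.16 ± 0.128 FPKM. Oca2, Slc45a2 and Tyr stayed under 0.3 FPKM in every library.

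The 7 pigment genes Tyr, Tyrp1, Dct, Pmel, Mlana, Slc45a2 and Oca2 were also summed per library. The sums were 103, 105 and 104 (SHAM), 98, 134 and 136 (MOG), 155, 152 and 136 (GB20) and 110, 181 and 116 (GV16). The groups with the lowest Gpnmb, SHAM and GB20, thus held the lowest and nearly the highest mean pigment sums, at 6.06 ± 0.253 and 8.50 ± 0.657 CPM (SD, n = 3 each). MOG lay between them at 7.29 ± 1.57 CPM, and GV16 was at 8.55 ± 2.68 CPM.

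Gpnmb was also set against that sum, as a description, since the GB20 and GV16 libraries chose the gene. For each pigment count there were 0.429 to 0.558 counts of Gpnmb in SHAM, 1.35 to 1.68 in MOG, 0.303 to 0.434 in GB20 and 0.785 to 1.02 in GV16. The MOG and GV16 ranges overlapped neither each other nor those of SHAM and GB20. In an edgeR fit with the pigment level of each library as a covariate, MOG vs. SHAM gave a log2 fold change of 1.65 (SE 0.174, Benjamini-Hochberg adjusted p = 1.83e-05), against 1.80 without it. The same fit gave -1.79 in GB20 vs. MOG and -1.23 in GB20 vs. GV16. These values include the libraries on which the gene was chosen and are no test of pigment content. In bulk RNA, fewer cells of a type and less RNA per cell cannot be told apart.

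**Figure D3:**
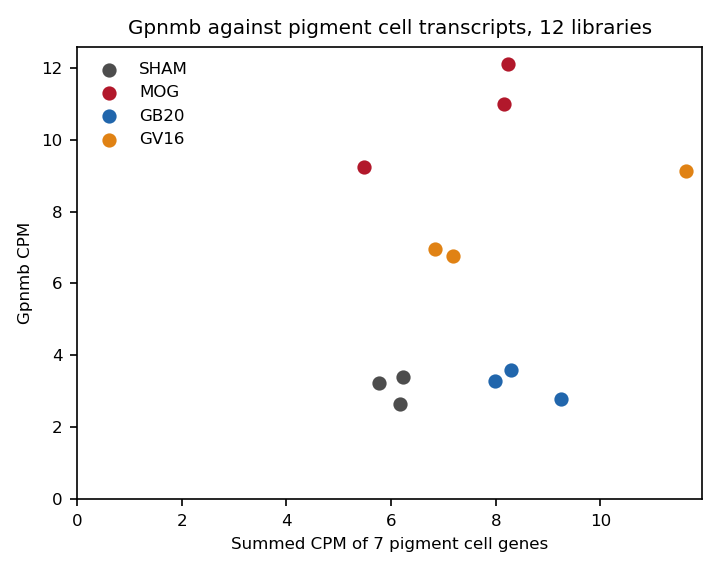
Gpnmb (y axis, CPM) against the summed CPM of 7 pigment cell genes (x axis), 1 point for each of the 12 libraries, colored by group. GB20 libraries, at 7.98 to 9.24 summed CPM, lie under the MOG libraries, at 5.48 to 8.23, in Gpnmb although their pigment sums are as high.

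Across the 12 libraries the patterns of Gpnmb and the pigment genes were compared by the correlation of log2(CPM + 0.5), given as a description since all genes share the same libraries and the libraries fall into 4 groups. Pearson's r with Gpnmb was 0.18 for Mitf, 0.12 for Tyr, 0.18 for Tyrp1, -0.11 for Dct, 0.28 for Pmel, -0.17 for Mlana and 0.20 for Slc45a2. Spearman's rank correlation of these 7 lay between -0.10 and 0.14. Oca2 had r = 0.71 and a rank correlation of 0.64, and with any 1 library left out its r was 0.66 to 0.80. Set among the 16050 genes with a mean of at least 1 CPM, a level Oca2 did not reach, this r would rank 241. Over the 10 libraries left without MOG 2 and MOG 3, the farthest from the median of Gpnmb, r was 0.65 for Oca2, 0.47 for Tyrp1, 0.20 for Mitf, 0.12 for Slc45a2, 0.048 for Pmel, -0.098 for Tyr, -0.17 for Dct and -0.23 for Mlana. The values of Tyrp1, Tyr and Pmel thus rest in part on those libraries. With any 1 library left out, r was 0.026 to 0.35 for Mitf, -0.022 to 0.34 for Tyrp1, 0.12 to 0.46 for Pmel and -0.36 to 0.066 for Dct.

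Within groups the picture differed. Correlating the deviations from the group means, r with Gpnmb was 0.70 for Pmel, 0.64 for Tyrp1 and 0.60 for Tyr, 0.36 for Oca2, 0.27 for Mlana, 0.19 for Dct, -0.058 for Slc45a2 and -0.41 for Mitf. Library GV16 2, the highest of its group in Gpnmb at 142 counts, was also the highest in Tyr, Tyrp1, Pmel and Oca2.

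**Figure D4:**
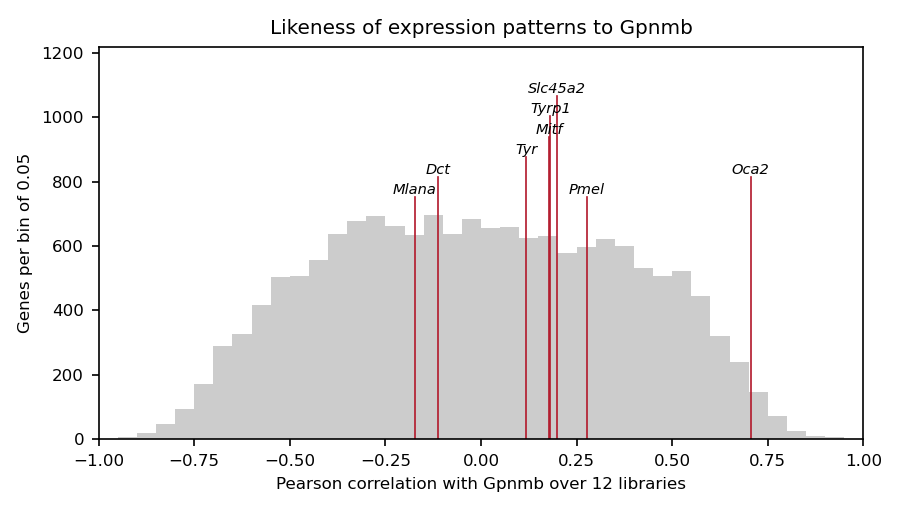
Number of genes (y axis) by Pearson correlation with Gpnmb over 12 libraries (x axis, bins of 0.05), for genes with a mean of at least 1 CPM, with red lines at the 8 other members. Oca2 lies at 0.71 in the right tail and the others between -0.17 and 0.28. Oca2, Tyr, Mlana and Slc45a2 were under that mean and are not among the genes counted.

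The 10 genes most like Gpnmb by this measure, with r from 0.86 to 0.94, were Ufl1, Pde10a, Dtnbos, Tfrc, Trim9, Tcim, Fam160a1, Arhgef28, Pex5l and Kcnma1, none of which is in the lists of melanosome or melanocyte genes used here. Reads of Dtnbos, an opposite-strand gene, cannot be told apart from those of its partner without the strand setting. Pde10a, a phosphodiesterase of cyclic nucleotides, had 35.9 ± 10.9 CPM in SHAM, 74.9 ± 5.09 in MOG, 33.9 ± 0.563 in GB20 and 61.4 ± 7.01 in GV16 (SD, n = 3 each). Trim9, a ubiquitin ligase of neurons, had 98.0 ± 10.4 CPM in SHAM, 138.7 ± 3.53 in MOG and 99.2 ± 6.90 in GB20, a change of 0.50 on the log2 scale in MOG vs. SHAM. Tfrc, the transferrin receptor, had 185.5 ± 12.1 CPM in SHAM, 225.7 ± 5.54 in MOG and 192.8 ± 1.51 in GB20. These genes were picked for their likeness, so no test is given for them.

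Genes beside the 9 in the same organelle or lineage were counted from lists. At most 1.34% of all genes were called in any comparison, so 0 called in such short lists says little. Of 22 tested further melanosome genes, among them the motor Myo5a and the sorting subunit Ap3d1, 0 were called by edgeR in any comparison, with 2 at an unadjusted p under 0.05 in MOG vs. SHAM and 4 in GB20 vs. MOG. Their median log2 fold change was 0.038 in MOG vs. SHAM. Of 5 tested genes of the melanocyte lineage 0 were called, with 0 under an unadjusted p of 0.05 in MOG vs. SHAM, and the lineage factor Pax3 was at 0 in every library. The most abundant of these, Trpm1, is also the channel of retinal ON bipolar cells and so marks no melanocyte here. Of 6 tested genes of the choroid stroma 0 were called, with 1 under an unadjusted p of 0.05 in MOG vs. SHAM and 0 in GB20 vs. MOG and in GV16 vs. MOG, and Lum was at 0 throughout. Of these 6, 3 lay above 0 in MOG vs. SHAM, with a median log2 fold change of 0.064. All 6 lay below 0 in GB20 vs. MOG, with a median of -0.23 and 0 ranges apart, beside a median of 0.00084 and 15.7% apart over all genes. They also lay below 0 in GV16 vs. MOG, with a median of -0.31 and 2 ranges apart, beside 0.0024 and 12.6% over all genes. Gpnmb was lower in the same comparisons, and the part of choroid content in its level was not tested.

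The pigment epithelium genes Rpe65, Lrat, Rgr and Ttr had their lowest mean levels in SHAM. They were picked from a list of 15 after their values were seen. In MOG vs. SHAM 2 of the 14 tested genes of that list lay below 0, Best1 at -0.20 (SE 0.414) and Rlbp1 at -0.15 (SE 0.0779). Best1 had 0.659 CPM in SHAM, 0.572 in MOG, 0.812 in GB20 and 0.504 in GV16. Rpe65, the isomerase of the visual cycle, had counts of 8, 23 and 20 (SHAM), 53, 73 and 30 (MOG), 51, 54 and 44 (GB20) and 27, 89 and 47 (GV16). The other groups overlapped each other. Its log2 fold change in MOG vs. SHAM, 1.63 (SE 0.474), did not pass the threshold (edgeR, Benjamini-Hochberg adjusted p = 0.145), and GB20 vs. MOG was -0.11 (SE 0.408). Rpe65 passed the threshold under 6 of 22 alternatives, among them DESeq2 (adjusted p = 0.0122) and the edgeR fit with a replicate block (adjusted p = 0.00457). It was chosen after its values were seen.

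The summed counts of Rpe65, Lrat, Rgr and Ttr were 253 to 358 in SHAM, 500 to 709 in MOG, 497 to 630 in GB20 and 270 to 808 in GV16. The sums of MOG and GB20 overlapped, where those groups were apart in Gpnmb. Rgr and Ttr make up most of the sum, and Lrat, the acyltransferase that stores retinol as ester, was lower in every GB20 library than in every MOG library. Lrat counts were 17, 22 and 15 (SHAM), 37, 39 and 34 (MOG), 29, 30 and 29 (GB20) and 18, 33 and 22 (GV16). The log2 fold change of Lrat in GB20 vs. MOG, -0.36 (SE 0.269), did not pass the threshold (edgeR, Benjamini-Hochberg adjusted p = 0.761). Library GV16 2 was the highest, at 808, and GV16 1, at 270, was within the range of SHAM with 112 counts of Gpnmb. Over the whole list of 15 genes the summed level was 748 to 808 CPM in SHAM and 757 to 807 CPM in MOG, most of it from genes such as Rlbp1 that Müller cells express as well. Of the 14 tested genes 0 were called in MOG vs. SHAM by edgeR, beside 1.34% of all genes. Of the 14, 7 had an unadjusted p under 0.05, beside 2380 of all 18299 genes, and 12 lay above 0. In GV16 vs. SHAM 2 of 14 were called, beside 0.656% of all genes, namely Enpp2, the lysophospholipase autotaxin, which rose by 0.40 (SE 0.0879, edgeR, Benjamini-Hochberg adjusted p = 0.0304), and Rlbp1, a retinal-binding protein, which fell by 0.36 (SE 0.0781, adjusted p = 0.0261). These were kept under 13 and 11 of 22 alternatives, and neither without SHAM 1, GV16 2 or GV16 3.

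With the mean level of those 4 genes as a covariate, Gpnmb gave 1.59 (SE 0.241, edgeR, Benjamini-Hochberg adjusted p = 0.00274) in MOG vs. SHAM, and -1.71 in GB20 vs. MOG. That mean level, on the log2 CPM scale, was 1.62 to 2.07 in SHAM, 2.51 to 3.07 in MOG and 2.58 to 2.81 in GB20. SHAM thus overlapped neither MOG nor GB20, so in comparisons of these groups with SHAM the fit cannot separate group from pigment epithelium content. The part of pigment epithelium content in the level of Gpnmb was not tested.

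**Figure D5:**
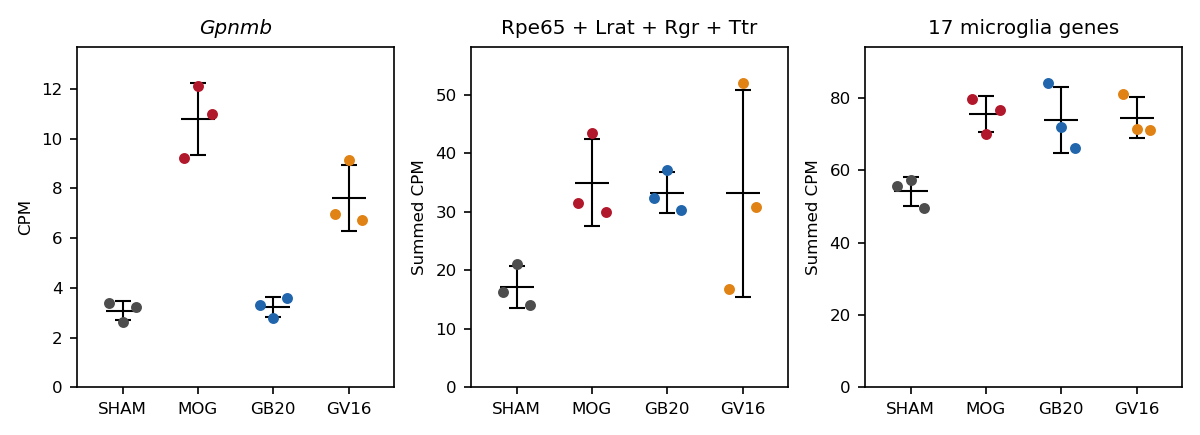
CPM of Gpnmb (left), of Rpe65, Lrat, Rgr and Ttr summed (middle) and of 17 microglia genes summed (right), 1 point per library with mean and SD (n = 3 libraries per group). MOG and GB20 are apart in Gpnmb and overlap in both sums.

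Microglia and other phagocytes are the other cells of a retina known to make Gpnmb. The summed level of 17 microglia genes was 49.6 to 57.4 CPM in SHAM, 70.0 to 79.8 in MOG, 66.1 to 84.0 in GB20 and 71.0 to 81.0 in GV16, so that all immunized groups lay above SHAM and overlapped each other. Of these 17 genes 2 were called higher in MOG vs. SHAM, beside 1.34% of all genes called, and 8 had an unadjusted p under 0.05, beside 2380 of 18299. C1qa, a subunit of complement C1q, rose by 0.99 (SE 0.236, edgeR, Benjamini-Hochberg adjusted p = 0.0451), and Csf1r, the receptor on which microglia depend, by 0.59 (SE 0.135, adjusted p = 0.0269). These calls were kept under 8 (C1qa) and 14 (Csf1r) of 22 alternatives and were lost, for example, without MOG 1 or MOG 3. In GB20 vs. MOG 0 of 17 were called, beside 0.24% of all genes, with 0 under an unadjusted p of 0.05. Their median log2 fold change was 0.0029.

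Of 7 Müller cell genes, Aqp4, the water channel of Müller cell endfeet, was called in MOG vs. SHAM and in both comparisons of needled groups with MOG. Of all genes 1.34% were called in MOG vs. SHAM, 0.24% in GB20 vs. MOG and 0.164% in GV16 vs. MOG. Ranges were apart for 16.2%, 15.7% and 12.6% of all genes in the same order. The mean of Aqp4 was 104.8 CPM in SHAM, 144.6 in MOG, 113.5 in GB20 and 114.0 in GV16, with the MOG range apart from each of the others. It rose by 0.46 on the log2 scale in MOG vs. SHAM (SE 0.0707, edgeR, Benjamini-Hochberg adjusted p = 0.000812), fell by 0.35 in GB20 vs. MOG (SE 0.0705, adjusted p = 0.0293) and fell by 0.34 in GV16 vs. MOG (SE 0.0707, adjusted p = 0.0472). These calls held under 22, 13 and 9 of 22 alternatives, and those of GB20 and GV16 against MOG were lost without any 1 of their own libraries. In GB20 vs. GV16 Aqp4 gave -0.0066 (SE 0.0709), where Gpnmb gave -1.23. Glul, of the same list, went the other way and was not called. It gave -0.26 (SE 0.0765) in MOG vs. SHAM, 0.18 (SE 0.0764) in GB20 vs. MOG and 0.25 (SE 0.0765) in GV16 vs. MOG. In MOG vs. SHAM 4 of the 7 genes lay above 0 and 3 below. The median log2 fold change of the 7 genes was 0.032 in MOG vs. SHAM and 0.088 in GB20 vs. MOG, and their part in the level of Gpnmb was not tested.

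Of 17 tested genes of activated phagocytes 2 were called in MOG vs. SHAM, both at low counts, beside 1.34% of all genes called. Of the 17, 11 lay above 0 and 6 below, with a median log2 fold change of 0.12. Mmp12, the macrophage elastase, had counts of 2, 8 and 1 (SHAM), 21, 19 and 18 (MOG), 13, 31 and 16 (GB20) and 23, 12 and 27 (GV16). It rose by 2.38 on the log2 scale in MOG vs. SHAM (SE 0.556, edgeR, Benjamini-Hochberg adjusted p = 0.0306) and gave 0.025 (SE 0.418) in GB20 vs. MOG. Without SHAM 2, which held 8 of the SHAM counts, the rise was 3.61. Clec7a, the beta-glucan receptor dectin-1, had counts of 4, 2 and 5 (SHAM), 15, 23 and 15 (MOG), 14, 7 and 6 (GB20) and 14, 6 and 6 (GV16).

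Clec7a rose by 2.26 in MOG vs. SHAM (SE 0.502, edgeR, Benjamini-Hochberg adjusted p = 0.0206) and gave -1.02 (SE 0.428, adjusted p = 0.544) in GB20 vs. MOG and -0.94 (SE 0.431, adjusted p = 0.921) in GV16 vs. MOG. Its levels in GB20 and GV16 overlapped, where those of Gpnmb were apart. Over 22 alternatives the rise in MOG vs. SHAM kept its call under 13 for Mmp12 and 15 for Clec7a, and both lost it without SHAM 1, MOG 2 or MOG 3. The other 15 tested genes of this list were not called in MOG vs. SHAM. In GB20 vs. MOG 0 of 17 were called, beside 0.24% of all genes, with 1 under an unadjusted p of 0.05.

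Sdc4, Cd44, Adam10 and Itgb1 encode proteins known to bind or cleave GPNMB. Of these 4 genes Cd44 was called, in MOG vs. SHAM (1.34% of all genes) and in GB20 vs. SHAM (0.344%). This hyaluronan receptor had counts of 133, 129 and 149 (SHAM), 226, 212 and 252 (MOG), 266, 212 and 174 (GB20) and 144, 122 and 171 (GV16). It rose by 0.77 in MOG vs. SHAM (SE 0.136, edgeR, Benjamini-Hochberg adjusted p = 0.00289) and was still higher than SHAM in GB20, by 0.64 (SE 0.136, adjusted p = 0.0421). The first call was kept under all 22 alternatives and the second under 9. In GB20 vs. MOG it gave -0.13 (SE 0.130, adjusted p = 0.831) and in GV16 vs. MOG -0.57 (SE 0.135, adjusted p = 0.138). Its means were 7.97 CPM for SHAM, 13.6 for MOG, 12.4 for GB20 and 9.12 for GV16, so that GB20 lay next to MOG in Cd44 and next to SHAM in Gpnmb.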

How the data were processed

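Retinal RNA of 12 libraries was analysed, 3 in each of SHAM, MOG, GB20 and GV16, grouped by their labels. The authors enriched polyadenylated RNA, aligned reads to mm10 with HISAT2 2.0.5 and counted them with FeatureCounts, and they deposited whole-number counts per gene. The authors also deposited FPKM values computed from count and gene length. Which annotation release they counted on, and whether strand or multiply aligned reads were considered, is not given in the sources used here. Names and coordinates came from GENCODE vM21 and promoters from RefSeq, both on GRCm38.

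The edgeR 4.0.16 package (R 4.3.3) was run on the counts: expression filter over the 4 groups (18299 genes), TMM scaling, 1 mean per group, robust quasi-likelihood F test with 8 residual degrees of freedom, and Benjamini-Hochberg adjustment over all genes. CPM values used the scaled library sizes. Labels give no batch. The methods describe biological replicates, but how many mice a library holds is not stated, so p-values measure the spread between libraries. Counting errors cover counting only. Alternatives were DESeq2 1.42.0, other scaling, no filter, 6 libraries, a replicate block, both covariates, limma 3.58.1 on log2(FPKM + 1) and log2(FPKM + 0.1), and leaving out libraries. The pigment epithelium covariate and dropping SHAM 2 with GB20 2 were added after the data had been seen. The test was checked on simulated counts.

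The members and all lists were chosen with earlier results of these data known. Genes named were the 9 members; from each of the 14 other lists up to 4 called genes with the largest change in MOG vs. SHAM or, with none called, up to 2 of the highest CPM; and the 10 most correlated with Gpnmb. Lists of rod, Müller, ganglion cell, lens and blood genes served as checks. Of 8 rod, 3 lens and 3 blood genes tested, 0 were called in any comparison. With at most 1.34% of all genes called, this says little. The filter dropped the rest of 10 lens and 5 blood genes, Cryaa among them. All 7 ganglion cell genes were called lower in MOG vs. SHAM and in GV16 vs. SHAM (0.656% of all genes), and 2 in GB20 vs. SHAM (0.344%). The Müller list held called genes, as reported for Aqp4 and Rlbp1. Rpe65, Lrat, Rgr, Ttr, Best1, Glul, Cryaa, Tfec, Pax3 and Lum were named outside this rule, after their values were seen. Figures were drawn with matplotlib 3.10.9 in Python 3.11.15.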

Additional observations from a re-analysis of the deposited data

Results flagged for a closer look

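The level of Gpnmb differed between the needled groups. The log2 fold change of GB20 vs. MOG minus that of GV16 vs. MOG was -1.23, with every GB20 library under every GV16 library. Of all genes tested, 8.34% had ranges apart between GB20 and GV16. Gpnmb was chosen for this difference, so no test is given. It is a description of the same 6 needled libraries that chose the gene.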

How the results depend on the processing

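Gpnmb was called in MOG vs. SHAM under all 22 alternatives, with a log2 fold change of 1.71 to 1.90 when single libraries were left out; over the single libraries left out it was -1.83 to -1.64 in GB20 vs. MOG, -0.65 to -0.41 in GV16 vs. MOG, -1.31 to -1.08 in GB20 vs. GV16, -0.030 to 0.15 in GB20 vs. SHAM and 1.15 to 1.38 in GV16 vs. SHAM. On log2(FPKM + 1), which compresses low values by construction, it was 0.84 in MOG vs. SHAM, -0.82 in GB20 vs. MOG, -0.29 in GV16 vs. MOG, -0.53 in GB20 vs. GV16 and 0.55 in GV16 vs. SHAM. The pigment covariate gave -0.14 in GB20 vs. SHAM and 1.09 in GV16 vs. SHAM, and the pigment epithelium covariate -0.12 in GB20 vs. SHAM. Oca2 in GV16 vs. SHAM was called with no filter, with the replicate block and without GV16 1 (2.14, 2.13 and 2.44), and no other member was called under any alternative.

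Counts of called genes moved more; the cause was not tested. As fitted for the report the counts were 245 for MOG vs. SHAM, then 44 and 30 for GB20 and GV16 against MOG, 1 for GB20 vs. GV16, and 63 and 120 for GB20 and GV16 against SHAM, and the series that follow keep this order. Without the filter they were 539, 140, 73, 8, 282 and 395. With the replicate block they were 404, 73, 47, 1, 182 and 236. With limma on log2(FPKM + 1) they were 117, 14, 6, 0, 14 and 36, and on log2(FPKM + 0.1) 106, 15, 5, 0, 11 and 39, where the 0 calls stood beside 603 and 602 genes at an unadjusted p under 0.05. The pigment covariate gave 117 in MOG vs. SHAM, 15 in GV16 vs. MOG, 5 in GB20 vs. SHAM and 13 in GV16 vs. SHAM, and the pigment epithelium covariate 51, 4 and 8 in the comparisons of MOG, GB20 and GV16 with SHAM. Fits on 6 libraries gave 118 in GB20 vs. MOG, 48 in GV16 vs. MOG, 3 in GB20 vs. GV16 and 66 in GV16 vs. SHAM. DESeq2 gave 5 in GB20 vs. GV16, 152 in GB20 vs. SHAM and 204 in GV16 vs. SHAM, and dropping SHAM 2 and GB20 2 gave 3 in GB20 vs. GV16. Single libraries left out gave 91 to 427, 13 to 83, 10 to 38, 0 to 4, 14 to 116 and 23 to 231; the 0 came without GB20 1, GB20 2 or GV16 2.

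Cd44 and Aqp4 kept their call in MOG vs. SHAM under all 22 alternatives, and Nefm under 16. The methods describe 3 repeats of the experiment, and whether a library number marks a repeat is not stated, so the libraries were not taken as paired: the correlation of same-numbered libraries in their deviations over 18 pairs was -0.10 to 0.38 (median 0.043), 7 were over 0.1, and 9 of 12 libraries correlated best with their own number, which hints at pairing without settling it. Depth limits Mlana, Slc45a2, Tyr and Oca2, with under 20 counts a library, to large changes.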
